A study of Mus musculus with 9 samples.

Results

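Cardiac action potentials are ended by potassium currents, and 8 genes that encode the voltage-gated channels carrying these currents were followed here in neonatal mouse ventricles with and without Arid1a. The genes were Kcnd2, Kcnd3, Kcnip2, Kcna4, Kcna5, Kcnq1, Kcne1 and Kcnh2, chosen by name for their roles in repolarization and found by Ensembl identifier among the 38293 genes of a raw count table. Libraries were made from ventricles at postnatal day 7 (P7), 5 of them from Arid1a f/f controls, which carry the floxed allele without Cre, and 4 from aMHC-Cre;Arid1a f/f mice (cKO). Both groups therefore share the floxed Arid1a allele, and Cre driven by the cardiomyocyte promoter of alpha myosin heavy chain is present only in the cKO group, so that other cell types of the ventricle are expected to keep Arid1a. A Cre-only group was not analysed here, so carrying Cre and losing Arid1a cannot be told apart. The protein ARID1A belongs to SWI/SNF, a complex that remodels chromatin.

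In mouse ventricle the fast transient outward current flows through pores built from the proteins of Kcnd2 and Kcnd3, and the product of Kcnip2 (KChIP2) binds these pores, brings them to the cell surface and slows their inactivation. The pore encoded by Kcna4 carries a slower transient outward current, and that of Kcna5 an ultrarapid delayed rectifier. Kcnq1 encodes the pore of the slow delayed rectifier, which is slowed and enlarged by the small single-span subunit encoded by Kcne1, and Kcnh2 encodes the pore of the rapid delayed rectifier. Transcript counts measure neither protein nor current.

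Library totals ranged from 31011055 to 40073801 counts, and 19418 to 20317 genes were detected per library. Levels are given as CPM, read counts relative to the library total after scaling by the trimmed mean of M values (TMM). Arid1a itself lay between 128 and 148 CPM in the control and between 100.3 and 113 CPM in the cKO libraries, which did not overlap. The libraries fell into 2 sets by Rps3a3, a ribosomal protein pseudogene, which was at most 0.521 CPM in control 1 and 2 and cKO 1 to 3 and at least 99.7 CPM in control 3 to 5 and cKO 4. The labels name no batch, and the sets hold different shares of the groups, so differences within each set are given below. Xist was at 744.7 CPM or more in control 2 and 3 and cKO 3 and 4 and at 0.283 CPM or less in the other libraries, so both sexes occurred in both groups. Ventricular cardiomyocyte markers summed to 56686 to 65989 CPM in the control and 50451 to 56973 CPM in the cKO libraries, and none of the 9 was at 0. In bulk tissue, fewer cells of a type and less RNA per cell cannot be told apart.

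Promoter windows, from 250 bases before to 50 bases after the RefSeq start on GRCm38.p6, were given for 6 of the 8 genes: Kcnd2, Kcnd3, Kcnip2, Kcna4, Kcna5 and Kcnh2. The windows of Kcnd2 and Kcnip2 are shown because these partners of one channel moved in opposite directions. They lie at chr6:21215096-21215395 on the plus strand and chr19:45816014-45816313 on the minus strand, are written 5′ to 3′ along the gene, and have each CG dinucleotide in capitals.
Kcnd2: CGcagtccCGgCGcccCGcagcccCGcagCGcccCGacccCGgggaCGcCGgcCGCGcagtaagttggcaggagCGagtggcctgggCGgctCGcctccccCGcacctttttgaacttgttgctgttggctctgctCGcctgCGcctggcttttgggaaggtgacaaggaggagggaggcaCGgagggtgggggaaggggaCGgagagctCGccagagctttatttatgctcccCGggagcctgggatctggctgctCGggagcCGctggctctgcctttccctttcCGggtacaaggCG
Kcnip2: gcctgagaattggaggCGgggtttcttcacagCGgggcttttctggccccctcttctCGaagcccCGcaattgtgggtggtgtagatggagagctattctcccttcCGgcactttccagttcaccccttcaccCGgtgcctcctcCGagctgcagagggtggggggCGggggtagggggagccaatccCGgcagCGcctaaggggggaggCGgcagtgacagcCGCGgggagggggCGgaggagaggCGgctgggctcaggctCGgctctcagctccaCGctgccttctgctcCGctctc
Both windows were rich in G and C, at 68.7% for Kcnd2 and 67.0% for Kcnip2 against a median of 52.7% over 32851 windows, and held 26 and 18 CG dinucleotides against a median of 7. Across all 6 windows G and C made up 55.0% to 74.3% of the bases. The Kcnh2 window began inside the annotated gene, at an internal start.

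Motifs that bear on this study were searched on both strands of the 6 windows. Neither printed window held GGAATG (TEAD), AAGGTCA (ESRR), CTANNNNTA (MEF2) or ACANNTGT (Iroquois), letters that occurred in 14.7%, 4.72%, 21% and 7.38% of all windows. The single match among the 6 was a TEAD motif on the opposite strand of Kcna5, where CATTCC began 128 bases before the start. That window, at chr6:126535506-126535805 on the minus strand, is shown with the match in capitals, and it held 4 CG dinucleotides, the fewest of the 6.
Kcna5: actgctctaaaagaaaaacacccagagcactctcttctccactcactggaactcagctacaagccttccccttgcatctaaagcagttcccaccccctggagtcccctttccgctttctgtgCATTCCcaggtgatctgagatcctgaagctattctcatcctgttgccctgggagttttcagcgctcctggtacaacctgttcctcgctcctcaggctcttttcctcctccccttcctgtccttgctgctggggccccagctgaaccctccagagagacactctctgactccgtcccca
No motif was found in the windows of Kcnd3, Kcna4 and Kcnh2, which says only that these letters are not in them.

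Per length of exon (RPKM on GENCODE M21 exons), the members covered a wide range of levels in control ventricles. Kcne1 stood first at 86.6 ± 10.4 RPKM (SD, n = 5), followed by Kcnip2 at 42.3 ± 10.05, Kcnh2 at 20.2 ± 3.44 and Kcnq1 at 15.1 ± 1.42 RPKM. Kcna5 was at 8.73 ± 1.07, Kcnd2 at 2.86 ± 0.470, Kcna4 at 1.48 ± 0.236 and Kcnd3 at 0.334 ± 0.0841 RPKM. Among neighbours in this order, the ranges of Kcnh2 (16.5 to 23.9 RPKM) and Kcnq1 (13.6 to 17.2 RPKM) overlapped, and the other neighbours did not. In cKO ventricles Kcnip2 had the highest mean, 145.9 ± 29.4 RPKM (SD, n = 4), and Kcne1 stood at 123 ± 12.6 RPKM, with overlapping ranges of 102 to 165 and 111 to 139 RPKM. Kcnh2 (15.9 ± 3.76), Kcnq1 (10.025 ± 1.26), Kcna5 (8.23 ± 0.957), Kcnd2 (1.44 ± 0.435), Kcna4 (1.34 ± 0.199) and Kcnd3 (0.152 ± 0.0775 RPKM) followed. In the cKO libraries Kcnq1 (8.45 to 11.5 RPKM) and Kcna5 (6.84 to 9.03 RPKM) overlapped as well, and so did Kcnd2 (1.02 to 1.93 RPKM) and Kcna4 (1.22 to 1.63 RPKM), whereas in the controls every Kcnd2 value lay above every Kcna4 value.

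**Figure D1:**
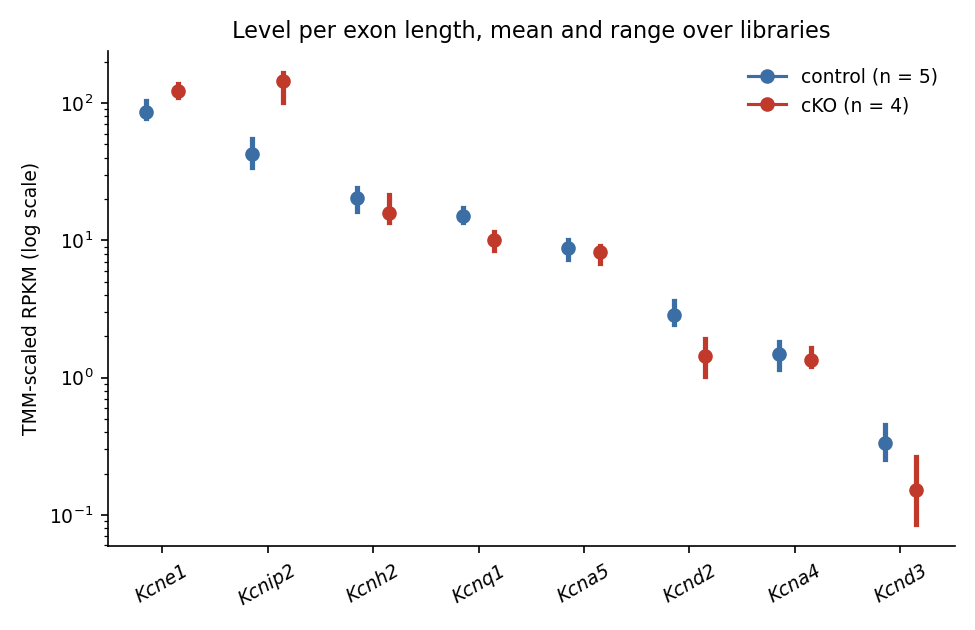
Level of each of the 8 genes per exon length in TMM-scaled RPKM (log axis), in order of the control mean, for 5 control (blue) and 4 cKO (red) libraries; points are means and lines run from the lowest to the highest library. Kcnip2 rises from a control mean of 42.3 to a cKO mean of 145.9 RPKM, next to Kcne1, and Kcnd3 is lowest in both groups.

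All 8 genes passed the filter on low counts. Between cKO and control libraries 4 of 8 were called, at an adjusted p under 0.05 with a fold over 1.5: Kcnip2 was higher, and Kcnd2, Kcnd3 and Kcnq1 were lower in the cKO. Among all 15318 genes tested, 6.72% were called, 4.01% as higher and 2.72% as lower. At the adjusted p alone 5 of 8 passed, Kcne1 being the fifth and higher in the cKO, against 16.3% of all genes, 8.25% higher and 8.03% lower. The libraries of the groups did not overlap for Kcnd2, Kcnip2, Kcnq1 and Kcne1, against 16.7% of all genes. The median log2 fold change was -0.25 over the 8 genes and 0.01 over all genes tested.

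**Figure D2:**
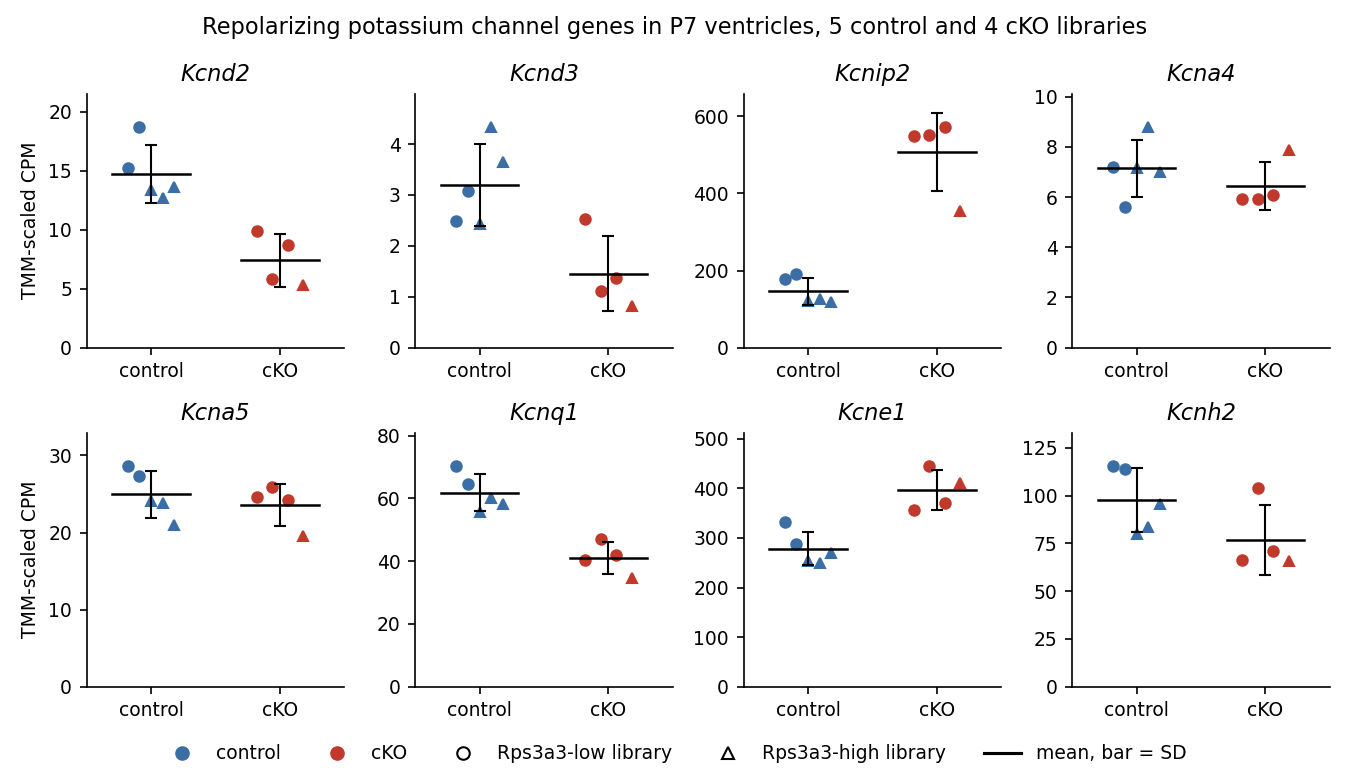
TMM-scaled CPM of each gene in every library (linear axes from 0), control in blue and cKO in red; circles are Rps3a3-low and triangles Rps3a3-high libraries, and the line and bar are the mean and SD. The 4 cKO libraries lie above all 5 control libraries for Kcnip2 and Kcne1 and below them for Kcnd2 and Kcnq1, while Kcnd3, Kcna4, Kcna5 and Kcnh2 overlap.

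The fast transient outward channel changed in its parts in opposite directions. Kcnd2 (ENSMUSG00000060882, GRCm38 chromosome 6, 21215503 to 21729805, plus strand), the main pore gene of this current in mouse ventricle, was at 15.2, 18.7, 13.4, 12.7 and 13.6 CPM in control 1 to 5. In cKO 1 to 4 it was at 9.92, 5.81, 8.69 and 5.28 CPM. Every cKO library was below every control library, and cKO 2 and 4 were the lowest. Group means were 14.7 ± 2.42 (SD, n = 5) and 7.42 ± 2.24 CPM (n = 4), so that Kcnd2 fell (log2 fold change -0.99, SE 0.19, 95% interval -1.41 to -0.57, edgeR adjusted p = 0.00435). On the log2 scale the difference was -1.08 among Rps3a3-low libraries and -1.32 among Rps3a3-high ones.

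Kcnd3 (ENSMUSG00000040896, chromosome 3, 105452330 to 105674002, plus strand), which encodes the second pore protein of the current, had the fewest reads of the 8, with 34 to 138 counts per library. Its control values were 2.498, 3.07, 2.44, 4.34 and 3.65 CPM, and its cKO values were 2.52, 1.11, 1.36 and 0.823 CPM. The groups overlapped, because cKO 1 lay within the control range. Means were 3.20 ± 0.806 in the control and 1.45 ± 0.743 CPM in the cKO libraries (log2 fold change -1.14, SE 0.31, 95% interval -1.82 to -0.47, edgeR adjusted p = 0.0251). The call was less firm than the others: it passed the adjusted p in 4 of 9 fits that each left out 1 library, in which the adjusted p reached 0.0738. It was lost without control 4 (adjusted p = 0.0584), control 5 (0.0553), cKO 2 (0.0738), cKO 3 (0.0668) or cKO 4 (0.0622), and in the Rps3a3-low libraries alone the log2 fold change was -0.75 (edgeR adjusted p = 0.308). Within the Rps3a3-high set, where cKO 4 is the sole cKO library, it was -1.97. An antisense gene, Kcnd3os, shares 165 exon bases with Kcnd3 and had 0 to 2 counts per library.

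Kcnip2 (ENSMUSG00000025221, chromosome 19, 45791839 to 45816061, minus strand), the accessory subunit gene, had the largest change of the 8. Control 1 to 5 held 178, 191, 121, 125 and 119 CPM, and cKO 1 to 4 held 549.7, 551, 573 and 355 CPM. The lowest cKO library, cKO 4, was still above the highest control, control 2. The mean rose from 147 ± 34.9 to 507 ± 102 CPM, which is 3.45-fold (log2 fold change 1.79, SE 0.19, 95% interval 1.36 to 2.21, edgeR adjusted p = 0.000205). Kcnip2 also moved with the library sets, with means of 184.7 and 122 CPM in the Rps3a3-low and Rps3a3-high controls. Within the sets the difference was 1.60 (low) and 1.54 (high) on the log2 scale.

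The ratio of 2 transcripts within a library needs no scaling between libraries, and 5 such ratios of counts were compared by exact permutation over every placement of the group labels, which allows a two-sided p no smaller than 0.00794. There were 11.7, 10.2, 9.03, 9.84 and 8.71 Kcnip2 counts for each Kcnd2 count in control 1 to 5, and 55.3, 94.6, 65.8 and 67.1 in cKO 1 to 4. The groups lay far apart, with a log2 difference of 2.82, or 7.04-fold (exact permutation p = 0.00794, adjusted over the 5 ratios p = 0.0198), and with differences of 2.68 and 2.87 inside the low and the high set. Kcnip2 and Kcnd2 each separated the groups already, in opposite directions. Their ratio therefore had to separate them too, and its p is not evidence beyond the 2 genes. Per exon length, Kcnip2 stood at 13.1 ± 1.84 times the sum of Kcnd2 and Kcnd3 in the control (SD, n = 5) and at 95.5 ± 23.1 times it in the cKO libraries (n = 4). The 2 pore genes did not shift detectably against each other. Kcnd3 made up 10.6% ± 3.29 of their summed RPKM in the control and 9.21% ± 2.01 in the cKO libraries, and the log2 ratio of Kcnd3 to Kcnd2 counts differed by -0.20 (exact permutation p = 0.524, adjusted p = 0.524). That ratio went opposite ways within the sets, 0.27 in the low and -0.70 in the high set.

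Kcna4 and Kcna5 did not pass the test. Kcna4 (ENSMUSG00000042604, chromosome 2, 107290639 to 107298502, plus strand), the pore gene of the slow transient outward current, was at 7.19, 5.59, 7.17, 8.81 and 6.98 CPM in control 1 to 5 and at 5.91, 5.94, 6.08 and 7.89 CPM in cKO 1 to 4. The groups overlapped throughout, and cKO 4 stood above the other cKO libraries. The log2 fold change was -0.15 (SE 0.15, 95% interval -0.46 to 0.17, edgeR adjusted p = 0.548), and -0.08 and 0.05 within the low and high sets. Its ratio to Kcnd2 also carries the fall of Kcnd2 (log2 fold change -0.99), so it is not a separate result on Kcna4. Kcna4 counts per Kcnd2 count were 0.474, 0.299, 0.538, 0.693 and 0.512 in control 1 to 5 and 0.596, 1.02, 0.7005 and 1.49 in cKO 1 to 4. Only cKO 1 lay within the control range. The log2 ratio was higher in the cKO by 0.88, or 1.84-fold (exact permutation p = 0.0238, adjusted p = 0.0397). Without cKO 4 the log2 difference fell to 0.63, and over the 9 fits that left out 1 library the adjusted p ran from 0.0298 to 0.149. Over all alternatives run for it, the ratio passed the adjusted p in 4 and missed it in 7.

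Kcna5 (ENSMUSG00000045534, chromosome 6, 126532551 to 126535412, minus strand), which encodes the pore of the ultrarapid current, was at 28.7, 27.3, 24.0, 23.9 and 20.95 CPM in the control and at 24.6, 25.8, 24.2 and 19.6 CPM in the cKO libraries. Its range in the cKO overlapped that of the control, with cKO 4 lowest. The log2 fold change was -0.08 (SE 0.11, 95% interval -0.32 to 0.15, edgeR adjusted p = 0.647), so that a change beyond 1.5-fold lay outside the interval. Within the sets it was -0.17 and -0.23. The TEAD letters in its promoter window, printed above, occurred in 14.7% of all windows, and their part in the level of Kcna5 was not tested.

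**Figure D3:**
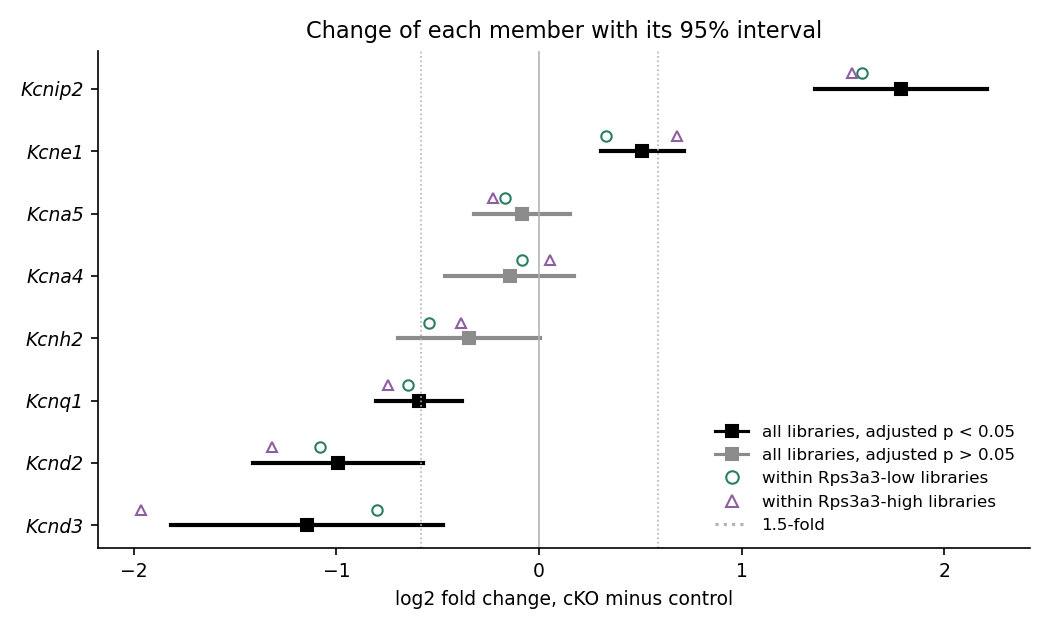
Log2 fold change of each gene, cKO minus control, from all 9 libraries (squares) with its 95% interval (bars), black where the adjusted p is under 0.05 and grey otherwise; open circles (low) and triangles (high) are log2 differences inside each Rps3a3 set, and dotted lines mark 1.5-fold. Kcnip2 is at 1.79 and Kcnd2 at -0.99, and the values inside both sets keep the sign of the whole for every gene but Kcna4.

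Both genes of the slow delayed rectifier changed, again in opposite directions. Kcnq1 (ENSMUSG00000009545, chromosome 7, 143106362 to 143427042, plus strand), the pore gene, was at 70.4, 64.6, 55.7, 60.2 and 58.3 CPM in control 1 to 5. In cKO 1 to 4 it was at 40.5, 47.1, 41.9 and 34.6 CPM. The groups did not overlap, and the mean fell from 61.8 ± 5.79 to 41.0 ± 5.17 CPM (log2 fold change -0.59, SE 0.10, 95% interval -0.80 to -0.38, edgeR adjusted p = 0.00147). At 1.51-fold it lay at the fold threshold: it passed the adjusted p in 18 of 18 alternative fits and the fold threshold in 12 of them. The fits that left out control 1 (log2 fold change -0.54), control 2 (-0.58) or cKO 4 (-0.52) were among those under 1.5-fold. The differences within the low and high sets were -0.65 and -0.75. The antisense gene Kcnq1ot1, which shares 121 exon bases with Kcnq1, was not analysed here, and with the strand setting of the counting not given, its reads cannot be told apart from those of Kcnq1 in that overlap.

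Kcne1 (ENSMUSG00000039639, chromosome 16, 92345982 to 92359468, minus strand), the accessory subunit gene, was at 331, 288, 254, 249 and 269 CPM in the control and at 357, 446, 370.0 and 412 CPM in the cKO libraries. Control 1 was the closest to the cKO range but stayed under it. The mean rose from 278 ± 33.3 to 396 ± 40.6 CPM, which is 1.42-fold (log2 fold change 0.51, SE 0.09, 95% interval 0.30 to 0.71, edgeR adjusted p = 0.00317), which passed the adjusted p and not the fold threshold. In the Rps3a3-low libraries alone it was 0.34 (edgeR adjusted p = 0.178). The within-set differences were 0.33 and 0.68.

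Kcne1 counts per Kcnq1 count were 4.70, 4.46, 4.55, 4.14 and 4.62 in control 1 to 5, a narrow range, and 8.80, 9.46, 8.83 and 11.9 in cKO 1 to 4. The groups did not overlap, with a log2 difference of 1.11, or 2.15-fold (exact permutation p = 0.00794, adjusted p = 0.0198), and 0.98 and 1.43 within the low and high sets. This separation also followed from that of Kcne1 and Kcnq1 alone, so the p of the ratio adds no evidence of its own. Per exon length the ratio was 5.72 ± 0.277 (SD, n = 5) in the control and 12.4 ± 1.87 (n = 4) in the cKO libraries. In both pore and accessory pairs, the accessory gene was therefore higher and the pore gene lower in the cKO.

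Kcnh2 (ENSMUSG00000038319, chromosome 5, 24319589 to 24351604, minus strand), the pore gene of the rapid delayed rectifier, was at 116, 114, 79.9, 83.8 and 95.5 CPM in the control and at 66.3, 104, 71.3 and 65.9 CPM in the cKO libraries. Of the cKO libraries, 3 lay below the control range and cKO 2 lay within it. The log2 fold change was -0.35 (SE 0.16, 95% interval -0.70 to 0.00, edgeR adjusted p = 0.172), which did not pass the test. Kcnh2 was higher in the Rps3a3-low than in the Rps3a3-high controls, with means of 115 and 86.4 CPM. With the library set as a term the log2 fold change was -0.47 (edgeR adjusted p = 0.0267), and without cKO 2 it was -0.53 (edgeR adjusted p = 0.0180). Passing the adjusted p thus depends on these choices, and the fold stayed under 1.5, so that Kcnh2 was called in 0 of 18 alternatives. Kcnh2 counts per Kcnq1 count ranged from 1.39 to 1.77 in the control and from 1.64 to 2.21 in the cKO libraries, with a log2 difference of 0.24 (exact permutation p = 0.103, adjusted p = 0.129).

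**Figure D4:**
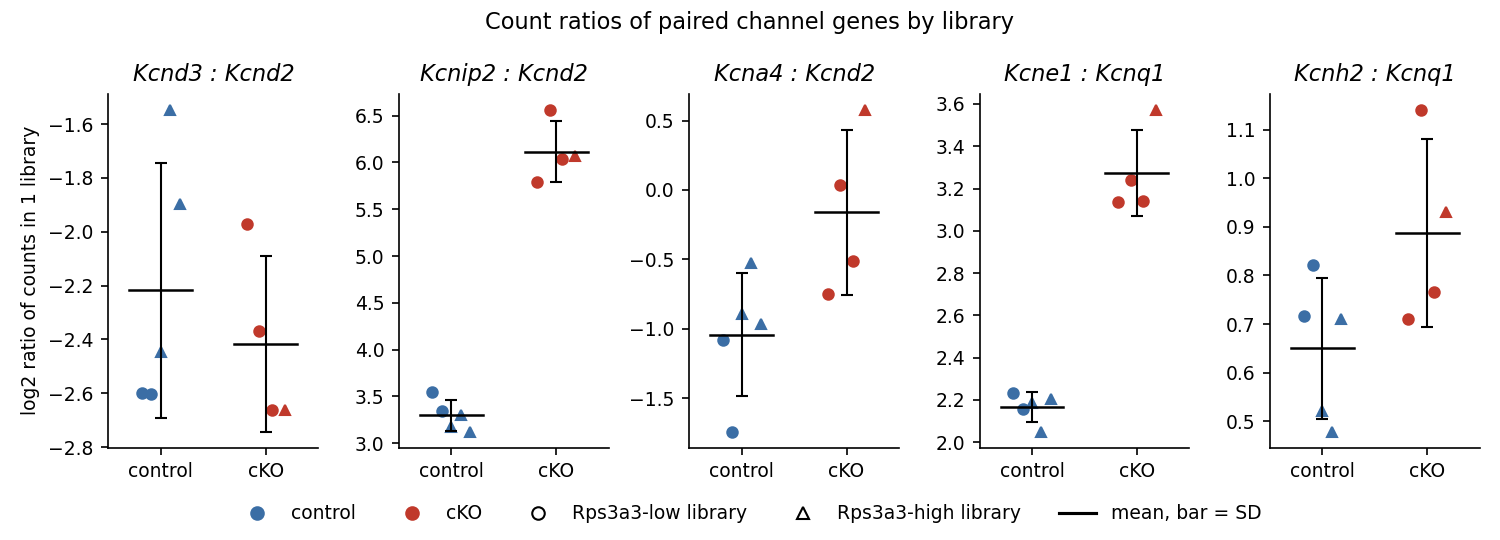
Log2 ratio of the counts of paired genes in each library (each panel has its own axis), control in blue and cKO in red; circles are Rps3a3-low and triangles Rps3a3-high libraries, and the line and bar are the mean and SD. The ratios of Kcnip2 to Kcnd2 and of Kcne1 to Kcnq1 do not overlap between the groups, with differences of 2.82 and 1.11, and the other 3 ratios overlap.

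Within the groups some members varied in company and others did not. After the group mean was taken from each log2 level, Pearson's r over the 9 libraries was 0.92 for Kcnip2 with Kcna5, 0.87 for Kcna5 with Kcnq1, 0.84 for Kcnip2 with Kcnq1, 0.84 for Kcnq1 with Kcnh2 and 0.82 for Kcne1 with Kcnh2. Every pair with Kcna4 was negative, down to -0.77 against Kcnip2 and -0.70 against Kcnd2. Negative values were also found for Kcnd3 with Kcne1 (-0.60), Kcnd3 with Kcnh2 (-0.25) and Kcnd2 with Kcne1 (-0.24). Of the pore and accessory pairs, which moved apart between the groups, Kcnd2 with Kcnip2 gave 0.72, Kcnq1 with Kcne1 gave 0.58 and Kcnd3 with Kcnip2 gave 0.21 within them. Kcnd2 with Kcnd3 gave 0.59, and Kcnd2 with Kcnh2 gave 0.02. These values are descriptions: the points share their libraries and scaling, and the library sets run through several of the genes.

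Other potassium channel genes were counted as a background to the 8. Of 71 in the table, in 4 lists of voltage-gated pores, accessory subunits, two-pore channels and calcium- or sodium-activated channels, 33 were tested. Of these 7 were called, against 6.72% of all genes tested, with 3 higher and 4 lower in the cKO. This split rests on single libraries: without cKO 4 it was 7 higher and 2 lower, and without control 2 it was 5 higher and 4 lower. In the Rps3a3-low libraries alone it was 4 higher and 3 lower. At the adjusted p alone 9 passed, 5 higher and 4 lower, against 16.3% of all genes, and the median log2 fold change was 0.14. Kcnk3, an acid-sensitive background channel (TASK), was the most abundant of the called genes and fell from 135 ± 8.72 to 86.3 ± 14.0 CPM (log2 fold change -0.65, edgeR adjusted p = 0.00113). Kcnn2, a small-conductance calcium-activated channel, fell from 13.1 ± 1.497 to 7.29 ± 1.63 CPM (-0.85, edgeR adjusted p = 0.00208), while its relative Kcnn1 rose from 4.32 ± 0.766 to 8.53 ± 0.999 CPM (0.98, edgeR adjusted p = 0.000863). For these 3 genes the groups did not overlap.

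Kcnc2 and Kcnma1 were called at low counts. Kcnc2, a fast delayed rectifier pore known from neurons, fell from 1.52 ± 0.193 to 0.848 ± 0.258 CPM (-0.85, edgeR adjusted p = 0.0313), with the adjusted p passed in 12 of 18 alternatives. It was missed without control 3, control 5, cKO 2 or cKO 4, with the replicate block, and in the Rps3a3-low libraries alone, where the adjusted p by edgeR was 0.317. Kcnma1, the large-conductance calcium-activated pore, had 0 to 9 counts in the control and 11 to 26 counts in the cKO libraries (edgeR adjusted p = 0.0220). Of its 17 alternatives, 3 missed the adjusted p: those without cKO 1 or cKO 2, and the replicate block, where the adjusted p by edgeR was 0.0715. Accessory subunits other than Kcnip2 and Kcne1 were called in 0 of 7 tested by edgeR, with 1 at an unadjusted p under 0.05. That gene, Kcne4, named after its values were seen, passed the adjusted p at a log2 fold change of 0.55 (edgeR adjusted p = 0.0210).

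Proteins that anchor or traffic these channels and the Iroquois factors were read from lists of their own. Of 13 anchoring and trafficking genes tested, 1 was called, a count near the share of 6.72% over all genes tested. That gene, Rnf207, encodes a ubiquitin ligase that acts on the Kcnh2 channel. It fell from 331 ± 45.3 to 191 ± 22.0 CPM (log2 fold change -0.79, edgeR adjusted p = 0.000428) without overlap. Of 5 Iroquois factors tested, 1 was called, against the same 6.72%: Irx5, described as a repressor of Kcnd2 across the ventricular wall. Irx5 rose from 5.38 ± 0.705 to 8.83 ± 1.97 CPM (0.72, edgeR adjusted p = 0.00938), without overlap. In the Rps3a3-low libraries alone, 1 of its 18 alternatives, Irx5 was at 0.81 and missed the adjusted p (edgeR, 0.0685). Their part in the channel genes was not tested.

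Markers of other cells moved with the groups in places. Conduction and pacemaker markers summed to 133 to 181 CPM in the control and 102 to 131 CPM in the cKO libraries. Of 7 tested, 3 were called lower, against 2.72% of all genes: Hcn4 (log2 fold change -3.11), Cntn2 (-1.83) and Cpne5 (-1.24). At the adjusted p alone 4 of the 7 were lower, against 8.03% of all genes, Tbx3 being the fourth (-0.44, edgeR adjusted p = 0.0473). Cacna1g (-0.41, edgeR adjusted p = 0.0616), Etv1 (-0.04) and Shox2 (0.37) did not pass. Fibroblast markers summed to 6923 to 8213 and 8559 to 9507 CPM. Of 8 tested, 4 were higher at the adjusted p, against 8.25% of all genes, and 0 were called by edgeR at 1.5-fold. Ventricular markers held 1 of 9 at the adjusted p, against 16.3% of all genes: Myl2, at a log2 fold change of -0.43. No marker of these 3 lists was at 0 in all libraries, and their part in the changes of Kcnd2, Kcnd3, Kcnip2, Kcnq1 and Kcne1 was not tested.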

How the data were processed

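Poly(A)-selected RNA of P7 ventricles was sequenced in 5 control and 4 cKO libraries. The authors deposited 1 table of unnormalized read counts by gene, made from single-end reads of a stranded kit. Per the submitters' processing notes the tools were STAR 2.4.2a and HTSeq 0.6.1 with mm10; the strand setting of the counting is not given in the sources used here. Of 38293 identifiers, 36429 were found in GENCODE M21 (GRCm38), which gave symbols, coordinates and exon lengths. The table held 0 other sample columns. None of the 36 pairs of libraries agreed within sampling noise (chi-square per gene of 9.60 to 114).

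All genes were tested in R 4.3.3 with edgeR 4.0.16 (filterByExpr with a minimum count of 10, TMM, robust quasi-likelihood F test, two-sided, genotype alone), which left 15318 genes. P-values were adjusted by Benjamini-Hochberg over all of them. Standard errors and 95% intervals were derived from each fold change with its F value. The study's methods name DESeq2 and 4 controls; its thresholds were kept, all 5 libraries labelled control were used, and DESeq2 1.42.0 served as an alternative. Ratios of counts (each + 0.5) were compared by two-sided exact permutation. The labels name the libraries as replicates and do not say that each is 1 animal, so p-values measure the spread between libraries.

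The members and the gene lists were chosen with earlier results of these data known. Every member is named; of the other lists called genes are named, up to 5 in each direction, except 2 that are not reported here, and for each member the 2 genes of at least 5 CPM with the most similar group-centred log2 level. Overlapping annotated genes were named where they shared exon bases with a member. Of the overlapping genes, Kcnd3os and Gm15589 were in the analysed table, and neither passed the count filter; the others were not analysed here. Promoters are from RefSeq. Alternatives were DESeq2, RLE and upper-quartile scaling, no filter, a mean of at least 1 CPM, the replicate block, library set as a term, the Rps3a3-low libraries alone, Xist as a covariate, leaving out each library, and no fold threshold.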

Additional observations from a re-analysis of the deposited data

Results flagged for a closer look

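Of 26 sets of values (8 genes and 5 ratios in each group), 3 had 1 library far from the others by Dixon's test, in which chance marks about 1 in 20. Kcnip2 in cKO 4 was at 355 CPM, below the other cKO libraries at 549.7 to 573 CPM (gap over range 0.892). Kcna4 in cKO 4 was at 7.89 CPM, above the others at 5.91 to 6.08 CPM (0.913). Kcnh2 in cKO 2 was at 104 CPM, above the others at 65.9 to 71.3 CPM (0.860). cKO 4 is the sole Rps3a3-high cKO library.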

How the results depend on the processing

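No log2 fold change of a member and no log2 difference of a ratio changed sign under the alternatives run. The balance of higher and lower calls among the other potassium channel genes did turn, from 3 and 4 to 7 and 2 without cKO 4. Kcnd2, Kcnip2 and Kcnq1 passed the adjusted p in 18 of 18 alternatives. With the replicate block, Kcnd3 had a log2 fold change of -1.152 (edgeR adjusted p = 0.0884), the members called were 3 and the genes called 888, with no other change of a member at the adjusted p; Kcnc2 and Kcnma1 missed it there. The numbers of the labels gave no sign of pairing: deviations of same-numbered libraries correlated at 0.01 to 0.23, and in 0 of 4 was the best match the same number. This check cannot exclude pairing by litter, which the labels do not give, since the library sets also enter the deviations. In the Rps3a3-low libraries alone, Kcnd3 was at -0.75 and Kcne1 at 0.34, and 620 genes were called with fewer samples. With library set as a term Kcnh2 was at -0.47. Without a fold threshold 2493 genes were called, as its construction implies. Scaling left the share of higher calls at 59.4% to 61.7%.

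With each library left out, log2 fold changes of Kcnd3 ran from -1.54 to -0.95 and of Kcnh2 from -0.53 to -0.28, and 2 to 4 members and 909 to 1171 genes were called. Without cKO 4 only Kcnip2 and Kcnd2 were called. The log2 difference ran from 2.67 to 2.93 for the ratio of Kcnip2 to Kcnd2, from 1.01 to 1.152 for Kcne1 to Kcnq1 and from 0.63 to 1.07 for Kcna4 to Kcnd2; their adjusted p reached 0.0714, 0.0714 and 0.149, in designs with fewer permutations. The low counts of Kcnd3, Kcnc2 and Kcnma1 limit their precision.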

Other observations

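The genes most like each member, over 9 libraries and about 11010 searched genes, were taken from levels with the group means removed, so they describe variation within the groups. Kcnip2 was most like Rps3a1 (r = 0.99) and Agrn (0.98). Kcne1 was most like Ptgis (0.99), which encodes prostacyclin synthase, and Slc52a2 (0.99). For Kcnh2 the nearest were Sec14l1 (0.99) and Pip5k1c (0.99), for Kcnq1 Dop1b (0.98) and Kdm8 (0.98), and for Kcna5 H2afv (0.99) and Man2c1 (0.97). Kcna4 came closest to Knl1 (0.99), a kinetochore gene, and Senp1 (0.97), Kcnd2 to Gtdc1 (0.97) and Tnfrsf21 (0.97), and Kcnd3 to Ahnak (0.99) and Cdkal1 (0.98). With 9 points and this many genes searched, high values of r arise readily, and the genes share the library sets.

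Atrial markers did not move as 1 list: Myl7 was higher (log2 fold change 1.197, edgeR adjusted p = 0.00493) and Stard10 lower (-1.44, edgeR adjusted p = 0.00176) in the cKO, and the list summed to 137 to 231 CPM in the control and 210 to 280 CPM in the cKO libraries. Acta1, the skeletal actin gene, was the 1 called gene of the skeletal muscle list, with 55.9 ± 17.7 CPM in the control and 254 ± 161 CPM in the cKO libraries (SD, edgeR adjusted p = 0.0369). The groups overlapped: cKO 1 was at 53.6 CPM, inside the control range of 43.2 to 86.3 CPM, and the other cKO libraries were at 196 to 402 CPM. Endothelial markers summed to 1556 to 1678 and 1501 to 1636 CPM in the 2 groups. Of 7 tested, 1 passed the adjusted p, against 16.3% of all genes, and 0 were called. That gene, Tek, was lower in the cKO without overlap (log2 fold change -0.28, edgeR adjusted p = 0.0193).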
